A study of Homo sapiens with 12 samples.

Results

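The ABC transporter family was examined in human lung cells as all gene symbols of the form ABC, a subfamily letter from A to G and a number. These were 46 of the 26485 symbols in the count files, with 12 in subfamily ABCA, 9 in ABCB, 12 in ABCC, 4 in ABCD, 1 in ABCE, 3 in ABCF and 5 in ABCG. All 46 were found in the GENCODE v44 annotation of hg38, where 45 are protein coding and ABCC13 is a lncRNA. The cells were A549, a lung adenocarcinoma line, and B2B (BEAS-2B), bronchial epithelial cells made immortal in culture. A549 received 10 µM SR11302 for 72 h, 50 µM SP600125 for 72 h or no treatment (NT), and B2B received the same, with 2 libraries of polyadenylated RNA in each of the 6 groups. SR11302 is a retinoid made to repress the transcription factor AP-1, and SP600125 inhibits JNK, the kinase of the AP-1 subunit Jun. All cells carried the genotype label WT and no transgene is named. Each inhibitor was used at 1 dose and 1 time, and the labels give the controls as untreated, whereas the legends of the study name DMSO, the solvent of the drugs.

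ABC proteins carry a pair of ATP-binding cassettes and spend ATP to move a substrate across a membrane. Members of ABCB, ABCC and ABCG export drugs, bile acids, glutathione conjugates and cyclic nucleotides from cells, and several of them are known for resistance to cancer drugs. ABCA1 and ABCG1 hand cholesterol and phospholipid to lipoproteins, ABCA3 loads surfactant lipid into the lamellar bodies of alveolar type II cells, and most ABCD members carry fatty acids into peroxisomes. ABCE1 and the ABCF proteins have the cassettes but no membrane part, and work on ribosomes.

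RefSeq promoter sequences (GRCh38.p14) were at hand for 35 of the 46 members. The 250 bases before the start are printed for 3 genes that the results below return to. ABCA1 and ABCA3 each moved in opposite directions in the lines with SR11302, and ABCE1 fell with SP600125 in both lines. Each also holds a motif found in no other member promoter, so the 3 do not stand for responding members at large. ABCB8 and ABCC10 also fell with SP600125 in both lines, and their promoters are not printed. The ABCA1 stretch lies at chr9:104928156-104928405 on the minus strand, that of ABCE1 at chr4:145098061-145098310 on the plus strand and that of ABCA3 at chr16:2340729-2340978 on the minus strand. Capitals mark an E-box and then an LXR-type direct repeat in ABCA1, a cyclic AMP response element in ABCE1 and an antioxidant response element in ABCA3.
ABCA1: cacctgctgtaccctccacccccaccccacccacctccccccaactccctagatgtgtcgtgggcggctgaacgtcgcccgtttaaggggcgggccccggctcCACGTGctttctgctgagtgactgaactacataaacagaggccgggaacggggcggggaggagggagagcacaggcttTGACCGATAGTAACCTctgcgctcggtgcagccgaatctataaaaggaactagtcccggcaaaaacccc
ABCE1: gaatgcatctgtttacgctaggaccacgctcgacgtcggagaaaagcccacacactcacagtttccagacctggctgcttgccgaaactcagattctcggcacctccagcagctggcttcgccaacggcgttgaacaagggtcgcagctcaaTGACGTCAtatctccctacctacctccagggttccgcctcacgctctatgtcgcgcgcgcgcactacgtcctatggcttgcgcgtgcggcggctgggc
ABCA3: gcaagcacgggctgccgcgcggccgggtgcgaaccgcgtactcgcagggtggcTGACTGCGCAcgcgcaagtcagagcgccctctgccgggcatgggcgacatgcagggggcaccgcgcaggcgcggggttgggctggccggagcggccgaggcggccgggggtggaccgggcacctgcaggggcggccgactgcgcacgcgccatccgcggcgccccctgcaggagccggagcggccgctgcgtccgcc

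Each motif was searched on both strands. The E-box, CACGTG, was in 4 of 35 member promoters (ABCB6, ABCF1, ABCA1 and ABCA9) and in 6.49% of 27305 promoters of the same length. The LXR-type direct repeat was in ABCA1 alone among members and in 0.0879% of all promoters, and its letters were taken from the element known in ABCA1 itself, so that this match was given by the choice. The cyclic AMP response element, TGACGTCA, was in ABCE1 alone among members and in 1.77% of all promoters. The AP-1 site, TGANTCA, was in 1 member promoter, that of ABCB11, and in 6.60% of all. The antioxidant response element was in ABCA3 alone among members and in 2.65% of all, and its match in ABCA3 overlaps a match to the xenobiotic response element. That element, GCGTG, was in 12 of 35 member promoters and 31.9% of all, while the GC box, GGGCGG, was in 18 of 35 and 42.3%. Of the motifs searched, the promoters of ABCB8 and ABCC10 held the GC box only. The sterol response element, TCACNCCAC, was in 0 of 35 member promoters and 0.875% of all. Letters of the AP-1 site and the antioxidant response element can overlap. These matches describe letters in a window and were not tested as binding sites.

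The libraries held 13969766 to 24917854 reads counted in genes. Epithelial markers (EPCAM, CDH1, KRT8, KRT18 and KRT19) summed to 5075 to 6413 CPM (counts scaled to a common library size) in treated and 11653 to 13398 CPM in untreated A549 cells, and to 400.3 to 870 CPM over the B2B libraries. Nearly all of this was KRT8 and KRT18, while CDH1 went the other way in A549, at 438 and 380 CPM with SP600125, against 122 and 128 CPM in untreated cells. The 5 mesenchymal markers summed to 882 to 1250 CPM over the A549 libraries, and in B2B to 2210 to 2513 CPM with SP600125, 7007 to 7074 CPM with SR11302 and 8373 to 8583 CPM without treatment. Nearly all of the mesenchymal sum was VIM in A549, while in B2B most of it was COL1A1, SPARC and VIM. The part of these markers in the results was not tested. The alveolar marker SFTPC was at or near 0 in A549, and of 4 basal markers KRT5, KRT14 and TP63 were near 0 in B2B. The fourth, KRT17, had 242 and 296 CPM with SR11302 and 38.9 and 59.2 CPM with SP600125 in B2B, against 388 and 418 CPM in untreated B2B cells, and at most 1.54 CPM in A549. Replicate 2 of B2B_NT stood apart, since 5 genes abundant in A549 summed to 86.2 CPM there and to 2.87 CPM in replicate 1. In untreated A549 cells 5 genes abundant in B2B summed to 7.59 CPM in replicate 2 and 0.333 CPM in replicate 1. The treated A549 libraries had more of them, at 28.7 and 37.3 CPM with SR11302 and 9.76 and 8.82 CPM with SP600125. Most of each sum in A549 was SPARC. Reads in no annotated gene made up 14.6 to 20.1% in the treated libraries and 23.8 to 25.9% in the untreated ones, and their part in the treatment results was not tested.

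Of the 46 members, 35 passed the filter on low counts. The other 11 (ABCA6, ABCA9, ABCA13, ABCB4, ABCB11, ABCC11, ABCC12, ABCC13, ABCD2, ABCG5 and ABCG8) had 1 to 49 reads over all 12 libraries. ABCB11, the bile salt export pump of the liver, and ABCB4, a phospholipid floppase of the bile canaliculus, are named after their values were seen, with 11 and 9 reads in untreated A549 cells and 0 in untreated B2B cells. Against a floor of 3 reads over the B2B group, the ratios were 4.52 for ABCB11 and 3.70 for ABCB4. These ratios leave out the counting error of the A549 reads. ABCB4 was not confined to A549, with 14 reads in B2B and 10 in A549 under SR11302, and 1 and 15 under SP600125. Statements below cover the 35 tested members unless said otherwise.

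To see how the cancer line differed from the bronchial line, untreated A549 cells were set against untreated B2B cells. The exporters ABCC2, ABCC3, ABCG2, ABCB1, ABCC1 and ABCC4 were higher in A549, while ABCC5 and ABCC10 were not called. In bulk RNA, fewer cells that express a gene and less mRNA per cell cannot be told apart, and each line stands only for itself. Called means here an adjusted p under 0.05 and a log2 fold change of at least 0.5 in size, by the quasi-likelihood test of edgeR, with Benjamini-Hochberg adjustment over 16373 genes. Of 35 members, 23 were called (65.7%), 18 higher and 5 lower in A549, while 56.9% of all genes were called, 30.4% higher and 26.5% lower. The median log2 fold change was 0.69 over the members and 0.05 over all genes, and its median size was 1.34 against 0.76. By subfamily, 7 of 9 ABCC members, 5 of 7 ABCB members and 2 of 3 ABCG members were higher in A549, ABCA had 4 higher and 4 lower of 9, and none of the ABCE and ABCF members was called.

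ABCC2 (chr10:99782640-99852594), which exports conjugated bile pigments and drugs at the apical membrane, had 834 and 924 CPM in untreated A549 cells, against 1.63 and 7.69 CPM in untreated B2B cells. Both A549 libraries were above both B2B libraries by far, and the higher of the B2B values came from the library that stood apart. The log2 fold change was 7.52 ± 0.42 (SE, adjusted p = 1.32e-09), and 9.07 without that library.

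ABCC3 (chr17:50634777-50692253), a basolateral exporter of glucuronides and bile acids, had 669 and 663 CPM in untreated A549 cells, against 19.8 and 20.6 CPM in untreated B2B cells, with a log2 fold change of 5.04 ± 0.14 (adjusted p = 4.15e-12). ABCG2 (chr4:88090150-88231628), the breast cancer resistance protein, had 94.0 and 109 CPM in A549, against 1.82 and 2.61 CPM in B2B, and was higher by 5.50 ± 0.18 on the log2 scale (adjusted p = 9.92e-12). In both genes every A549 library was above every B2B library.

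ABCB1 (chr7:87503017-87713323), which encodes P-glycoprotein and shares its locus with the opposite-strand gene RUNDC3B, had 9.34 and 10.99 CPM in untreated A549 cells, against 0.0479 and 0.0407 CPM in untreated B2B cells. That is 375 reads against 2, a 231-fold ratio with an exact 95% counting interval of 63.6 to 1918. ABCC1, an exporter of glutathione conjugates, had 668 and 662 CPM in A549, against 164 and 164 CPM in B2B, and ABCC4, an exporter of cyclic nucleotides, had 183 and 224 CPM, against 77.7 and 77.0 CPM. Their log2 fold changes were 2.02 ± 0.10 (adjusted p = 3.19e-10) and 1.40 ± 0.15 (adjusted p = 1.24e-06). ABCC5, a related cyclic nucleotide exporter, was not called, at -0.24 ± 0.11 (adjusted p = 0.072), nor was the drug exporter ABCC10, at -0.26 ± 0.15 (adjusted p = 0.143).

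The sulphonylurea receptors ABCC8 and ABCC9, which are subunits of ATP-sensitive potassium channels and not exporters, were found almost only in A549. ABCC8 had 89 reads in untreated A549 cells, against 0 in untreated B2B cells. Against a floor of 3 reads over the B2B group the ratio was 36.6, without the counting error of the A549 reads. ABCC9 had 102 reads in A549, against 1 in B2B, a 126-fold ratio with an exact counting interval of 22.1 to 5020.

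The 5 members lower in A549 included ABCA8, ABCA5, ABCA10 and ABCA1. ABCA8, ABCA10 and ABCA5 are neighbours in a cluster on chromosome 17 (68867289 to 69327244), where ABCA10 and ABCA5 overlap. ABCA8 had 0.0556 and 0.0531 CPM in untreated A549 cells, against 5.94 and 6.03 CPM in untreated B2B cells, or 2 reads against 272, 110-fold lower with an exact counting interval of 30.2 to 915. ABCA5 had 6.95 and 9.13 CPM in A549, against 59.8 and 55.3 CPM in B2B (log2 fold change -2.84 ± 0.22, adjusted p = 3.87e-08). In both genes the libraries of the lines did not overlap.

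Divided by transcript length, which allows genes to be set against each other, the order of the family differed between the lines. In untreated A549 cells ABCC2 led with 151 ± 10.96 CPM per kb (SD, n = 2), ahead of ABCC3 with 117 ± 0.75 and ABCC1 with 102 ± 0.65, and ABCE1 was next with 51.4 CPM per kb. In untreated B2B cells ABCE1 led with 56.7 CPM per kb, ahead of ABCF1 with 51.7, and ABCD3 and ABCF2 followed with 28.5 and 28.4, which overlapped within their spread. In A549 the libraries of ABCF1 (42.9 CPM per kb) and ABCF2 (40.02) overlapped, as did those of ABCC4 (34.8) and ABCD3 (30.6). The family took 0.333 to 0.347% of reads in untreated A549 cells and 0.136 to 0.137% in untreated B2B cells. ABCC1, ABCC2 and ABCC3 together made up 57.2 to 66.1% of the family's reads over the A549 libraries and 13.6 to 18.5% over the B2B libraries, while ABCE1 and the ABCF genes made up 9.95 to 15.7% in A549 and 35.2 to 42.2% in B2B.

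**Figure D1:**
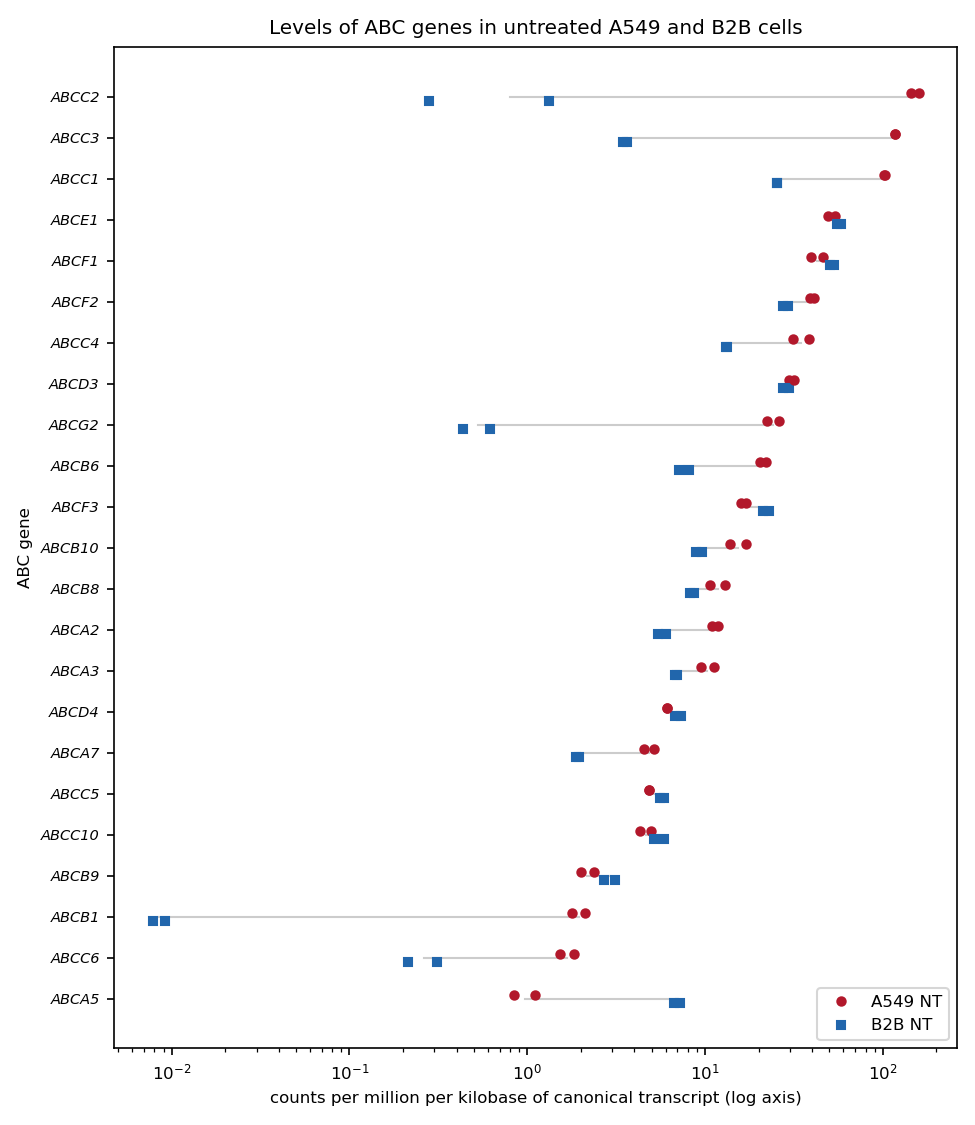
Levels of the members in untreated A549 and untreated B2B cells in CPM per kb of transcript on a log axis, for 23 of the 25 members with at least 1 CPM per kb in either line, with points for the libraries. ABCC2, ABCC3 and ABCC1 stand at 151, 117 and 102 in A549, and ABCE1 and ABCF1 stand at 56.7 and 51.7 in B2B.

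The inhibitors were then set against no treatment in each line. The comparisons of both inhibitors share the untreated libraries of that line, as does the comparison of the lines. In A549, 8 of 35 members were called with SR11302 (22.9%), 5 higher and 3 lower, where 27.8% of all genes were called, 14.8% higher and 13% lower. With SP600125 18 of 35 were called (51.4%), 9 in each direction, where 48.8% of all genes were called, 23.9% higher and 25% lower. In B2B, 7 of 35 were called with SR11302 (20%), 5 higher and 2 lower, where 22.5% of all genes were called, 11.4% higher and 11.1% lower. With SP600125 16 were called (45.7%), 8 in each direction, where 43.8% were called, 21.2% higher and 22.6% lower. The share of the family called was thus near that of all genes in each treatment comparison, and the members differed in which way they went.

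**Figure D2:**
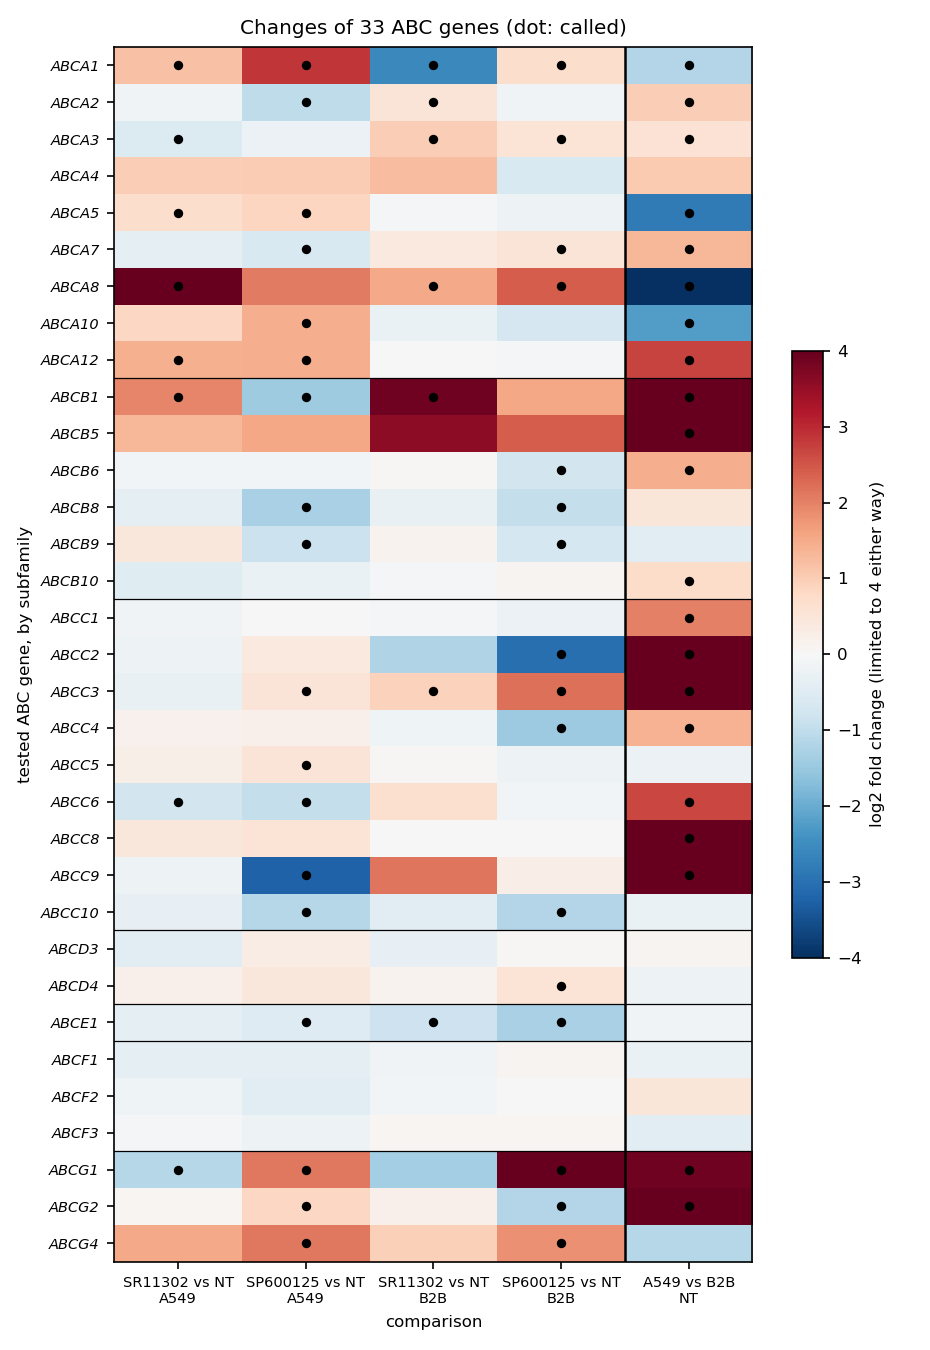
Log2 fold changes of 33 of the tested members (rows) under each inhibitor against no treatment and between the untreated lines (columns), with colour limited to 4 either way and a dot where a change was called. In A549 8 members have a dot with SR11302 and 18 with SP600125, and in B2B 7 and 16.

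Of the sterol exporters, ABCA1 (chr9:104781006-104928155), whose promoter is printed above, had 7.33 and 8.95 CPM in A549 cells with SR11302 and 25.6 and 26.3 CPM with SP600125, against 3.72 and 3.45 CPM in untreated A549 cells. Each treated library was above both untreated ones. ABCA1 rose by 1.18 ± 0.19 on the log2 scale with SR11302 (adjusted p = 0.000352) and by 2.85 ± 0.18 with SP600125 (adjusted p = 8.66e-08).

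In B2B the order was another. ABCA1 had 1.52 and 1.13 CPM with SR11302 and 14.2 and 12.4 CPM with SP600125, against 8.96 and 7.37 CPM in untreated B2B cells. It fell with SR11302 (-2.59 ± 0.21, adjusted p = 2.61e-06) and rose with SP600125 (0.71 ± 0.17, adjusted p = 0.00285), and the SP600125 call was lost without replicate 2 of B2B_NT (0.57, adjusted p = 0.05).

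The partner of ABCA1 in lipoprotein loading, ABCG1 (chr21:42199689-42297244), had 0.486 and 1.34 CPM in A549 cells with SR11302 and 7.90 and 10.1 CPM with SP600125, against 1.89 and 2.23 CPM in untreated A549 cells. In B2B it had 0.0822 and 0 CPM with SR11302 and 3.22 and 3.59 CPM with SP600125, against 0.0958 and 0.163 CPM in untreated cells, which rest on 2 and 4 reads. With SP600125 it rose in A549 (2.12 ± 0.32, adjusted p = 7.9e-05) and in B2B (4.62 ± 0.52, adjusted p = 8.41e-06). With SR11302 it fell in A549 (-1.14 ± 0.39, adjusted p = 0.0366), and that call was lost without either untreated A549 library, without replicate 1 of the treated pair, without replicate 1 of B2B_SP600125 and without scaling factors, while without replicate 2 of the treated pair the value was -2.05.

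ABCG4, a sterol exporter known from the brain, also rose with SP600125 in both lines, by 2.10 ± 0.65 on the log2 scale in A549 (adjusted p = 0.0135) and by 1.82 ± 0.49 in B2B (adjusted p = 0.0061). Its levels were low, at 0.969 and 2.07 CPM in A549 cells with SP600125, against 0.222 and 0.478 CPM in untreated A549 cells. In B2B it had 3.07 and 2.495 CPM with SP600125, against 0.527 and 1.02 CPM in untreated B2B cells. Each call was lost without replicate 1 of the untreated pair, and also without replicate 2 of the treated pair in A549 and replicate 1 of it in B2B.

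**Figure D3:**
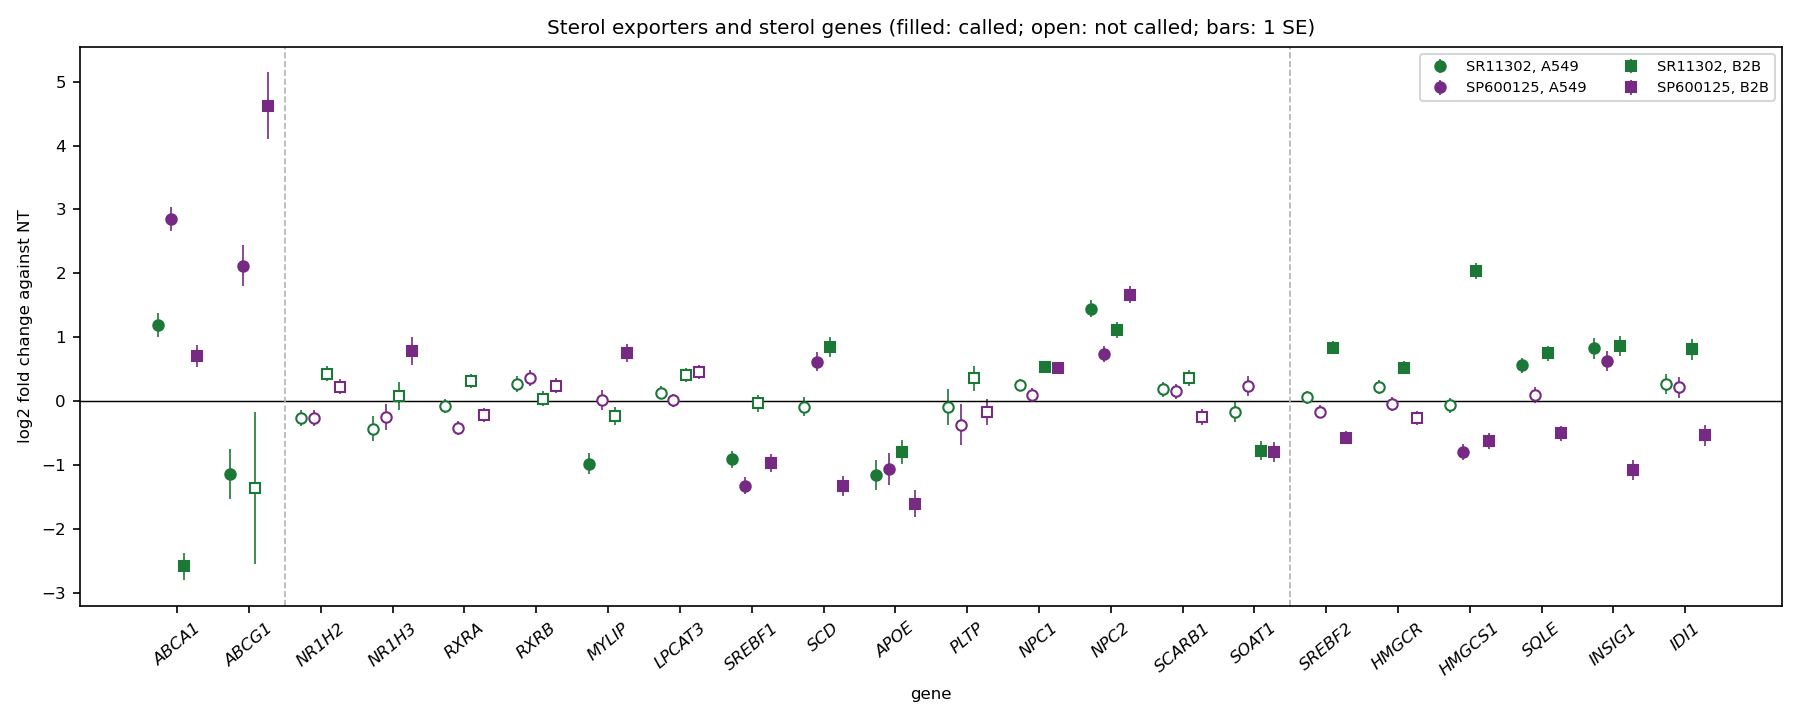
Log2 fold change against no treatment for ABCA1, ABCG1, 14 genes of cholesterol efflux and 6 of the 8 of sterol uptake and synthesis (separated by dashed lines), with 1 SE; colours are the inhibitors, circles A549 and squares B2B, and open points were not called. ABCA1 stands at 1.18 with SR11302 in A549 and at -2.59 in B2B, while HMGCS1 stands at -0.07 and 2.04.

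Among 14 genes of cholesterol efflux and the liver X receptors, which switch on ABCA1 and ABCG1 when oxysterols rise, 1 rose and 3 fell with SR11302 in A549, 2 rose and 2 fell with SP600125 in A549, 3 rose and 2 fell with SR11302 in B2B, and 4 rose and 4 fell with SP600125 in B2B. Of all genes, 27.8%, 48.8%, 22.5% and 43.8% were called in these comparisons, and every list count under an inhibitor stands against these shares. List counts between the untreated lines stand against 56.9% of all genes called, 30.4% higher and 26.5% lower in A549. The median log2 fold changes of the efflux list in the 4 inhibitor comparisons were -0.09, 0.01, 0.33 and 0.02. NPC2, which binds cholesterol in lysosomes, rose in all 4 comparisons, by 1.45 and 0.74 on the log2 scale in A549 and by 1.11 and 1.67 in B2B with SR11302 and SP600125. APOE, a lipoprotein component and a target of the liver X receptors, fell in all 4, at -1.16 and -1.07 in A549 and -0.80 and -1.61 in B2B. SREBF1, another target, fell with each inhibitor in A549 (-0.91 and -1.33) and with SP600125 in B2B (-0.97), and stood at -0.04 with SR11302 in B2B. The APOE call with SR11302 in B2B was lost without replicate 2 of either B2B pair, and with a GC offset per library its SP600125 value in A549 was -0.19.

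Of 8 genes of sterol uptake and synthesis, 6 rose with SR11302 in B2B, the comparison in which ABCA1 fell. HMGCS1, an early enzyme of the pathway, rose by 2.04 ± 0.13 there (adjusted p = 1.78e-07), and SREBF2, the factor that drives the pathway, by 0.84 ± 0.10 (adjusted p = 4.53e-05). With SP600125 in B2B 7 fell, among them INSIG1, which holds the sterol-sensing factors in the endoplasmic reticulum (-1.08 ± 0.16, adjusted p = 9.77e-05). The median log2 fold change of the list in B2B was 0.78 with SR11302 and -0.60 with SP600125, against 0.01 for all genes in each. In A549 the list was mixed, with 2 higher and 1 lower under SR11302 and 2 higher and 2 lower under SP600125.

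P-glycoprotein mRNA responded to the inhibitors in opposite directions in A549. ABCB1 had 34.8 and 43.3 CPM with SR11302 and 3.95 and 3.72 CPM with SP600125, against 9.34 and 10.99 CPM in untreated A549 cells. The 3 groups did not overlap. ABCB1 rose with SR11302 (1.94 ± 0.16, adjusted p = 1.29e-06) and fell with SP600125 (-1.41 ± 0.19, adjusted p = 3.03e-05).

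In B2B, ABCB1 had 0.781 and 0.676 CPM with SR11302 and 0.104 and 0.183 CPM with SP600125, against 0.0479 and 0.0407 CPM in untreated cells. With SR11302 this was 31 reads against 2, a 16.7-fold ratio with an exact counting interval of 4.26 to 144, and edgeR called it (adjusted p = 0.00034). With SP600125 it was 5 reads against 2, and was not called (adjusted p = 0.205). All 6 B2B libraries lay below the lowest A549 library.

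**Figure D4:**
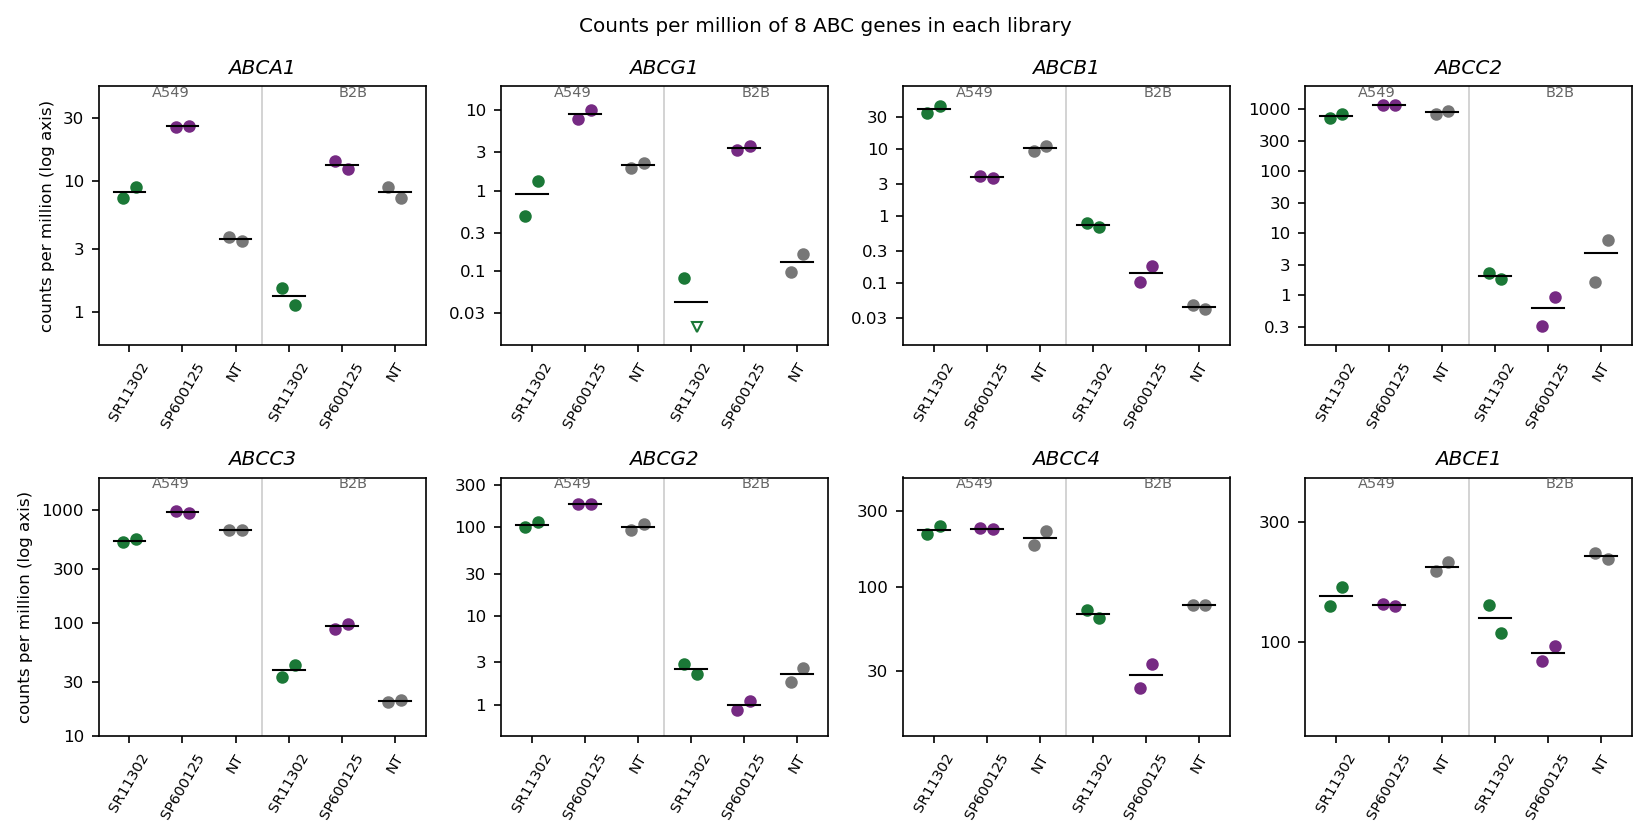
CPM of 8 members in each of the 12 libraries on log axes, with a line at each group mean; an open triangle near the bottom marks a value of 0. ABCB1 in A549 lies at 34.8 and 43.3 with SR11302, 3.95 and 3.72 with SP600125 and 9.34 and 10.99 without treatment.

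ABCC3 rose with SP600125 in both lines. In A549 it had 516 and 558 CPM with SR11302 and 970 and 950 CPM with SP600125, against 669 and 663 CPM in untreated cells. The SP600125 rise was 0.53 ± 0.11 on the log2 scale (adjusted p = 0.00135), and the SR11302 value of -0.31 ± 0.11 was under the fold minimum (adjusted p = 0.0478). In B2B it had 33.4 and 42.8 CPM with SR11302 and 88.4 and 98.3 CPM with SP600125, against 19.8 and 20.6 CPM in untreated cells. These rises were 0.91 ± 0.12 (adjusted p = 0.000159) and 2.21 ± 0.13 (adjusted p = 2.48e-08), without overlap of the groups.

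ABCG2 went in opposite directions in the lines under SP600125. It had 99.4 and 115 CPM with SR11302 and 181 and 180 CPM with SP600125 in A549, against 94.0 and 109 CPM in untreated A549 cells. The SP600125 rise was 0.83 ± 0.13 (adjusted p = 0.000113), and with SR11302 the libraries overlapped the untreated ones. In B2B, where it was low, it had 2.88 and 2.25 CPM with SR11302 and 0.884 and 1.10 CPM with SP600125, against 1.82 and 2.61 CPM in untreated cells, and fell with SP600125 (-1.18 ± 0.27, adjusted p = 0.00233).

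ABCC2 was high in A549 throughout, at 723 and 816 CPM with SR11302 and 1172 and 1148 CPM with SP600125, against 834 and 924 CPM in untreated cells, and was called under neither inhibitor (adjusted p = 0.649 and 0.267). In B2B it had 2.26 and 1.80 CPM with SR11302 and 0.312 and 0.913 CPM with SP600125, against 1.63 and 7.69 CPM in untreated cells. The SP600125 fall was -3.00 ± 0.64 (adjusted p = 0.00142). Without the untreated library that stood apart it was -1.45 and still called (adjusted p = 0.0137). The SR11302 value was -1.21 with that library and 0.34 without it, and was called in neither fit, but it was -1.90 and called without the other untreated library (adjusted p = 0.000207).

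Among the other exporters, ABCC1 was called under neither inhibitor in either line, with values of -0.14 and -0.01 in A549 and -0.04 and -0.24 in B2B for SR11302 and SP600125. ABCC4 fell with SP600125 in B2B, where it had 23.3 and 33.1 CPM, against 77.7 and 77.0 CPM in untreated cells (-1.46 ± 0.15, adjusted p = 4.23e-06). In A549 its SP600125 value of 0.19 was not called. ABCC5 rose in A549 with SP600125, at 40.8 and 40.05 CPM, against 28.1 and 28.0 CPM in untreated cells (0.53 ± 0.11, adjusted p = 0.00126), though with a GC offset per library the value was 0.38. ABCC10 fell with SP600125 in A549 (-1.13 ± 0.16, adjusted p = 4.99e-05) and in B2B (-1.18 ± 0.15, adjusted p = 2.86e-05).

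ABCC6, which is best known from the liver and whose loss causes pseudoxanthoma elasticum, fell in A549 to 4.61 and 5.82 CPM with SR11302 and 5.29 and 3.72 CPM with SP600125, against 9.45 and 7.86 CPM in untreated cells. The log2 fold changes were -0.73 ± 0.22 (adjusted p = 0.0221) and -0.94 ± 0.24 (adjusted p = 0.00394), and the calls were lost without replicate 1 of either group and without scaling factors for SR11302 and without replicate 2 of the treated pair for SP600125. Only 80.8% of the 50-base windows of its exons were unique in the genome, since near-identical copies exist, so its counts are less certain. The channel subunit ABCC9 fell with SP600125 in A549, to 0.0745 and 0.482 CPM, against 2.11 and 3.40 CPM in untreated cells (-3.24 ± 0.60, adjusted p = 0.000403), with values of -2.495 and -5.09 without replicate 1 and replicate 2 of the treated pair.

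Partners of the exporters were also counted. Of 12 NRF2 regulators and targets, the oxidative stress genes to which ABCC1, ABCC2 and ABCC3 are linked, 10 were higher in untreated A549 cells than in untreated B2B cells, with a median log2 fold change of 2.66, against 0.05 for all genes. NQO1, a quinone reductase, had 1999 and 1861 CPM in untreated A549 cells, against 96.9 and 109 CPM in untreated B2B cells (4.23 ± 0.14, adjusted p = 1.48e-11). With SP600125 in A549 7 of the 12 rose and 2 fell, among them NFE2L2 itself (0.99 ± 0.09, adjusted p = 1.76e-06). With SR11302 1 rose in A549 and 4 rose in B2B, and with SP600125 in B2B 3 rose and 4 fell.

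Of 18 tested genes of glutathione and glucuronide conjugation, which make substrates of the ABCC exporters, 13 were higher and 3 lower in untreated A549 cells. With SR11302 3 rose and 3 fell in A549 and 9 rose and 1 fell in B2B, and with SP600125 2 rose and 2 fell in A549 and 5 rose and 2 fell in B2B. GSTM3, a glutathione transferase, rose in all 4 treatment comparisons (1.64 and 1.502 in A549 and 1.35 and 1.08 in B2B with SR11302 and SP600125). Of 15 tested uptake carriers, 10 were higher and 3 lower in untreated A549 cells. With SR11302 4 fell in A549, and 3 rose and 2 fell in B2B, while with SP600125 3 rose and 6 fell in A549 and 2 rose and 6 fell in B2B. SLC19A1, the reduced folate carrier that takes up methotrexate, fell with SP600125 in A549 (-2.85 ± 0.24, adjusted p = 6.89e-07) and in B2B (-2.26 ± 0.24, adjusted p = 4.1e-06).

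ABCA3, the surfactant lipid transporter, differed in direction between the lines under SR11302. It had 45.4 and 47.7 CPM with SR11302 and 56.7 and 58.2 CPM with SP600125 in A549, against 73.8 and 62.3 CPM in untreated A549 cells. B2B cells had 88.1 and 92.8 CPM with SR11302 and 69.9 and 63.0 CPM with SP600125, against 44.9 and 45.8 CPM in untreated cells. No treated library overlapped the untreated ones of its line. ABCA3 fell with SR11302 in A549 (-0.55 ± 0.11, adjusted p = 0.0019), rose with SR11302 in B2B (0.99 ± 0.11, adjusted p = 3.03e-05) and rose with SP600125 in B2B (0.55 ± 0.11, adjusted p = 0.000913). The fall in A549 was lost without replicate 1 of A549_NT, without scaling factors and with a GC offset per library (-0.41), and the SP600125 rise in B2B without replicate 1 of the treated pair (0.44).

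ABCA12, which carries glucosylceramide into the lamellar granules of keratinocytes, rose in A549 with each inhibitor, to 13.4 and 20.6 CPM with SR11302 and 18.4 and 16.7 CPM with SP600125, against 5.34 and 7.43 CPM in untreated cells. The log2 fold changes were 1.42 ± 0.22 (adjusted p = 0.000266) and 1.46 ± 0.22 (adjusted p = 8.79e-05). In B2B all 6 libraries lay between 0.791 and 1.10 CPM.

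ABCA8, at 2 reads in untreated A549 cells, had 97 reads with SR11302 (1.31 and 2.93 CPM, against 0.0556 and 0.0531 CPM), a 40.1-fold ratio with an exact counting interval of 10.8 to 336, and a fitted log2 fold change of 5.15 that was 4.46 without replicate 2 of the treated pair. B2B cells had 19.0 and 15.4 CPM with SR11302 and 36.1 and 28.6 CPM with SP600125, against 5.94 and 6.03 CPM in untreated cells. Both treated pairs lay above the untreated pair, with rises of 1.53 ± 0.23 (adjusted p = 0.000325) and 2.44 ± 0.23 (adjusted p = 1.71e-06). An antisense gene, ABCA9-AS1, overlaps ABCA8, and the strand setting of the counts is not given in the sources used here.

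ABCA5, a lysosomal member, rose in A549 with each inhibitor (0.71 ± 0.22, adjusted p = 0.0221 for SR11302, and 0.86 ± 0.22, adjusted p = 0.00491 for SP600125), and both calls were lost without replicate 1 of A549_NT, the SR11302 call also without replicate 2 of the treated pair and the SP600125 call also with a GC offset per library. ABCA2, which handles lipid in endosomes and lysosomes, fell with SP600125 in A549 to 44.6 and 47.2 CPM, against 96.1 and 88.1 CPM in untreated cells (-1.004 ± 0.12, adjusted p = 1.45e-05). ABCA7, a phospholipid transporter, fell to 19.97 and 23.2 CPM, against 35.3 and 31.0 CPM (-0.62 ± 0.16, adjusted p = 0.00459), a call lost without replicate 1 of the treated pair. Both genes have GC-rich exons (64.8% and 62.6%), and over 14856 genes the SP600125 fold change in A549 ran against exon GC content (Spearman's rho = -0.388 across genes). With a GC offset per library, chosen after the data were seen, ABCA2 stood at -0.03 (adjusted p = 0.778) and ABCA7 at 0.18 (adjusted p = 0.241).

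The surfactant and lamellar body list held 6 tested genes, of which 1 rose with SR11302 in A549 and 3 rose and 1 fell with SP600125. In B2B 2 rose with SR11302 and 3 with SP600125. CTSH, a protease that matures surfactant proteins, rose by 1.01 with SR11302 in A549, and by 0.94 and 1.00 in B2B with SR11302 and SP600125. LPCAT1, which makes surfactant phosphatidylcholine, fell with SP600125 in A549 (-1.25, adjusted p = 1.51e-06) and rose in B2B (0.60, adjusted p = 0.000854).

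Of the mitochondrial members, ABCB8 fell with SP600125 in both lines and ABCB6 in B2B. ABCB8 had 21.4 and 23.02 CPM with SP600125 in A549, against 60.1 and 49.6 CPM in untreated A549 cells, and 20.8 and 19.9 CPM in B2B, against 38.3 and 40.2 CPM in untreated B2B cells. The log2 fold changes were called in both lines (-1.30 ± 0.13, adjusted p = 3.18e-06, and -0.95 ± 0.13, adjusted p = 5.1e-05). ABCB6, a porphyrin transporter, fell in B2B (-0.73 ± 0.14, adjusted p = 0.000557), at 14.4 and 13.1 CPM with SP600125, against 21.4 and 24.2 CPM in untreated cells. ABCB10, needed for haem synthesis, was called under neither inhibitor in either line, at -0.48 and -0.25 in A549 and -0.08 and 0.12 in B2B with SR11302 and SP600125. With SR11302 in A549 it was called without replicate 1 of A549_NT (-0.61), without replicate 2 of the treated pair (-0.56) and with a GC offset per library (-0.58, adjusted p = 0.000264), and ABCB8 was called there without replicate 2 of A549_NT (-0.52) or replicate 1 of the treated pair (-0.51). Among 22 genes of mitochondrial iron-sulphur and haem synthesis, 5 rose and 4 fell with SP600125 in A549 and 6 rose and 4 fell in B2B, with ISCU, the iron-sulphur scaffold, at 1.40 and 0.70. With SR11302 2 rose and 2 fell in A549, and 3 rose and 2 fell in B2B.

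The lysosomal peptide transporter ABCB9 also fell with SP600125, in A549 to 4.84 and 3.52 CPM, against 8.23 and 6.96 CPM in untreated cells (-0.86 ± 0.26, adjusted p = 0.01), and in B2B to 5.98 and 6.45 CPM, against 9.39 and 10.9 CPM (-0.71 ± 0.23, adjusted p = 0.0174). These calls rested on single libraries, since each was lost in at least 2 of the fits that left out 1 library. Its relatives with other symbols, TAP1 and TAP2, form the antigen peptide transporter of the endoplasmic reticulum. TAP1 rose in all 4 treatment comparisons (0.69 and 1.33 in A549 and 0.60 and 0.73 in B2B with SR11302 and SP600125), with the SR11302 calls lost in fits that left out 1 library, while TAP2 fell with SP600125 in A549 (-1.02 ± 0.11, adjusted p = 6.1e-06) and in B2B (-0.78 ± 0.11, adjusted p = 4.72e-05). Of 13 genes of peptide loading, which include TAP1 and TAP2, 9 were lower in untreated A549 cells than in untreated B2B cells, and 6 rose and 2 fell with SP600125 in A549.

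Of the ABCD members, ABCD3, a peroxisomal importer of branched fatty acids and bile acid precursors, was called under neither inhibitor in either line. It had 66.6 and 92.9 CPM with SR11302 and 136 and 134 CPM with SP600125 in A549, against 106 and 114 CPM in untreated cells. Its SP600125 libraries were above and its SR11302 libraries below the untreated ones, at 0.29 ± 0.16 (adjusted p = 0.12) and -0.47 ± 0.16 (adjusted p = 0.0314, under the fold minimum). The SR11302 fall was called without replicate 2 of the treated pair (-0.70, adjusted p = 0.00146) and with a GC offset per library (-0.63, adjusted p = 3.21e-05), and in B2B ABCD3 was called with SR11302 without replicate 1 of the treated pair (-0.58, adjusted p = 0.0313). ABCD4, which carries cobalamin out of lysosomes, rose with SP600125 in B2B (0.56 ± 0.13, adjusted p = 0.00208, a call lost without replicate 1 of the treated pair and with a GC offset per library) and stood at 0.45 ± 0.13 in A549, where it was called without scaling factors (0.52) and with a GC offset (0.54). Of 18 genes of peroxisomal beta-oxidation and assembly, 8 rose and 2 fell with SP600125 in A549 and 7 rose and 3 fell in B2B, including PEX19, a chaperone of peroxisomal membrane proteins, at 1.05 and 1.03.

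ABCE1 (chr4:145098288-145129524), which splits ribosomes after translation ends, had 139 and 166 CPM with SR11302 and 141 and 140 CPM with SP600125 in A549, against 192 and 208 CPM in untreated cells. In B2B it had 141 and 109 CPM with SR11302 and 84.3 and 96.3 CPM with SP600125, against 226 and 215 CPM in untreated cells. Every treated library was below both untreated libraries of its line. ABCE1 fell with SR11302 in B2B (-0.82 ± 0.13, adjusted p = 0.000506) and with SP600125 in A549 (-0.51 ± 0.13, adjusted p = 0.00423) and B2B (-1.29 ± 0.13, adjusted p = 3.66e-06), and stood at -0.39 ± 0.13 with SR11302 in A549, under the fold minimum but called without replicate 2 of the treated pair (-0.502) and with a GC offset per library (-0.55). The SP600125 call in A549 was near the minimum, and was lost without replicate 2 of A549_NT or of A549_SP600125 and without scaling factors. ABCE1 overlaps ANAPC10 and OTUD4, and 90.0% of its exon windows were unique.

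The ABCF proteins, which bind ribosomes or initiation factors, passed both limits in none of the treatment comparisons or between the lines by edgeR. The largest values were -0.43 ± 0.12 for ABCF2 with SP600125 in A549 (adjusted p = 0.00646) and 0.50 ± 0.12 for ABCF2 between the lines (adjusted p = 0.00192), just under 0.5 before rounding. Without replicate 1 of A549_SR11302, ABCF1 was called with SR11302 in A549 (-0.62, adjusted p = 0.000829), and between the lines ABCF3 was called without scaling factors (-0.54, adjusted p = 0.002) and with a GC offset (-0.57), and ABCF2 without replicate 2 of either untreated pair (0.54 in each). ABCF1 had 132 and 94.7 CPM with SR11302 and 111 and 114 CPM with SP600125 in A549, against 157 and 135 CPM in untreated cells. ABCF2 and ABCF3 ranged from 132 to 186 CPM and from 33.5 to 43.8 CPM over the A549 libraries, and from 113 to 133 CPM and from 51.8 to 61.4 CPM over the B2B libraries. Of 12 partners in ribosome recycling and translation, 1 rose and 1 fell with SR11302 in A549, 3 rose and 1 fell with SP600125 in A549, 1 rose and 2 fell with SR11302 in B2B, and 2 rose and 3 fell with SP600125 in B2B. EIF3J, an initiation factor that works with ABCE1, fell with SR11302 in A549 (-0.65, adjusted p = 0.00216) and with each inhibitor in B2B (-0.80, adjusted p = 0.000716, and -0.64, adjusted p = 0.00116).

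Whether an inhibitor acted differently in the lines was tested by the interaction, in which the effect in B2B is subtracted from that in A549. For SR11302 this called 8 of 35 members, where 15.8% of all genes were called. Of these 8, 3 were higher and 5 lower, where 8.34% and 7.41% of all genes were. For SP600125 it called 16 of 35, 10 higher and 6 lower, where 25.2% of all genes were called, 12.1% higher and 13.1% lower. The members with the largest values were ABCA1 under SR11302 (3.78 ± 0.29, adjusted p = 2.83e-06) and ABCA8 under SR11302 (3.63 ± 0.82, adjusted p = 0.0085), though ABCA8 had 2 reads in untreated A549 cells. ABCC2 under SP600125 stood at 3.40 ± 0.72 (adjusted p = 0.00368), and at 1.85 without replicate 2 of B2B_NT (adjusted p = 0.0116). ABCC3 had a smaller rise in A549 than in B2B under SP600125 (-1.68 ± 0.17, adjusted p = 1.63e-05). ABCG2 (2.01 ± 0.30, adjusted p = 0.000355) and ABCC4 (1.65 ± 0.21, adjusted p = 0.000104) had higher SP600125 effects in A549. For ABCB1 the difference in the SR11302 effect was not called (-1.94 ± 0.68, adjusted p = 0.0672), and the count of reads in B2B was low.

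**Figure D5:**
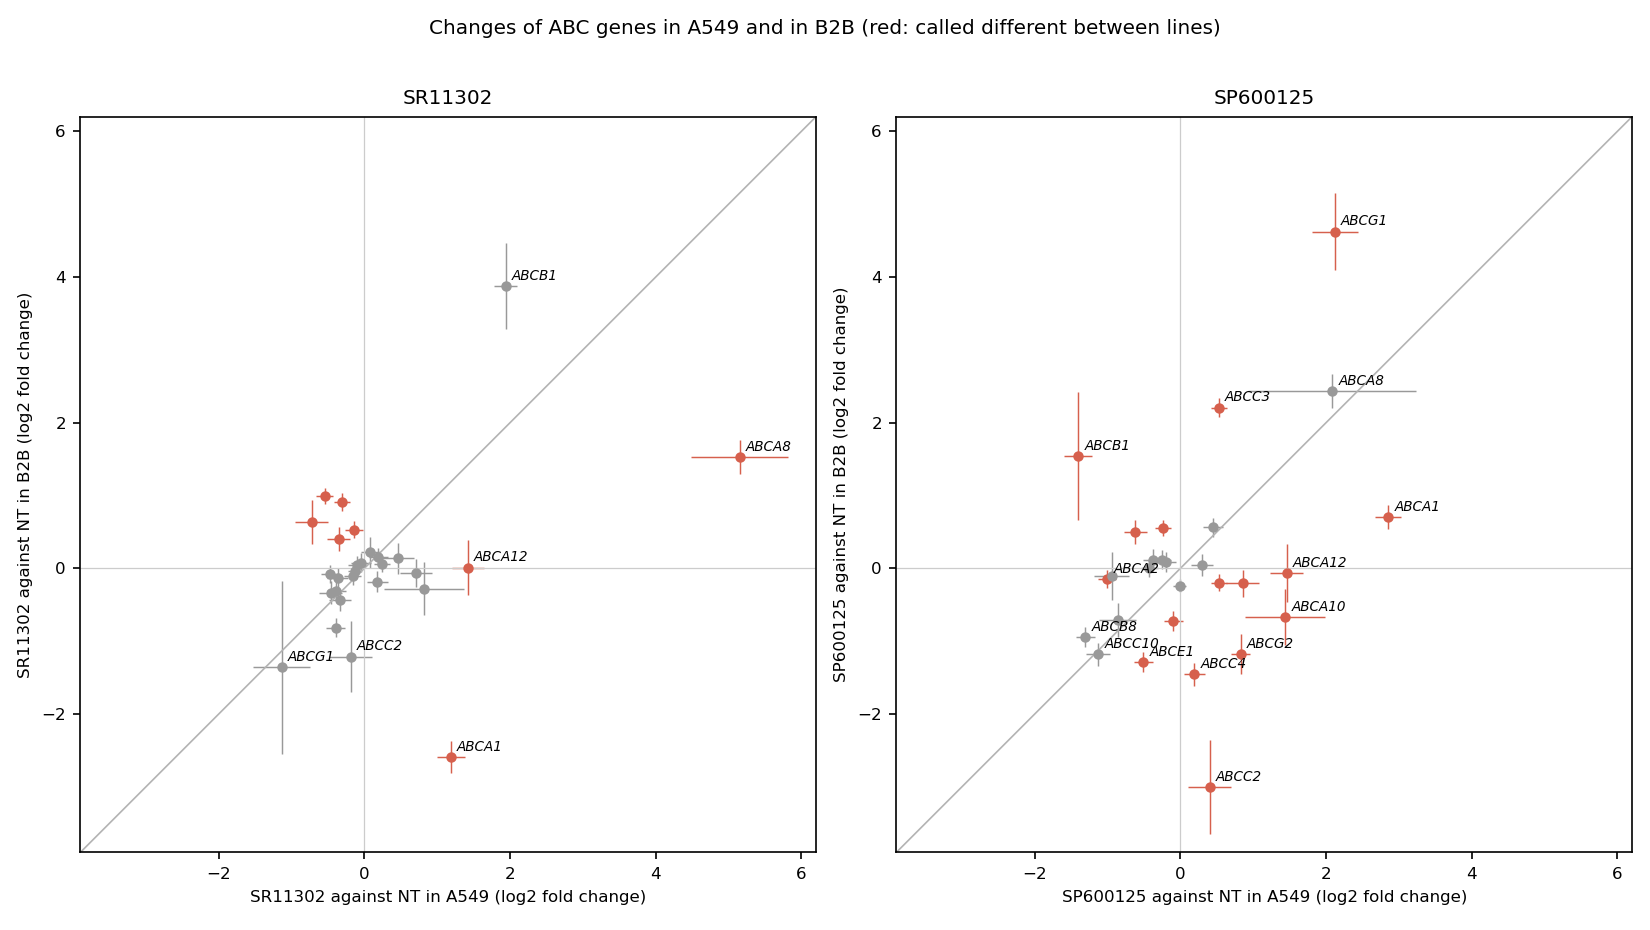
Log2 fold change of each inhibitor against no treatment in A549 (x) and in B2B (y) for 28 of the 30 members with at least 1 CPM in either untreated line apart from ABCC8 and ABCC9; bars are 1 SE and red points were called different between the lines. ABCA1 lies at 1.18 and -2.59 with SR11302 and at 2.85 and 0.71 with SP600125, and ABCC2 at 0.40 and -3.00 with SP600125.

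SP600125 was also set directly against SR11302, at 50 and 10 µM, so that compound and dose cannot be told apart. In A549 12 of 35 members were called, 5 higher and 7 lower with SP600125, where 37.1% of all genes were called, 16.6% higher and 20.5% lower. In B2B 12 were called, 4 higher and 8 lower, where 33.7% were called, 15.6% higher and 18.1% lower. ABCB1 was lower with SP600125 than with SR11302 in A549 (-3.35 ± 0.18, adjusted p = 5.59e-08) and in B2B (-2.34 ± 0.50, adjusted p = 0.00192). ABCA1 was higher (1.67 ± 0.17, adjusted p = 5.82e-06, and 3.30 ± 0.21, adjusted p = 1.5e-07), as was ABCC3 (0.84 ± 0.11, adjusted p = 6.95e-05, and 1.30 ± 0.12, adjusted p = 3.37e-06). ABCG1 in B2B had 121 reads with SP600125, against 2 with SR11302, a 71.4-fold ratio with an exact counting interval of 19.3 to 596.

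The endothelial markers PECAM1 and VWF, both detected in all 4 SP600125 libraries, summed to 5.93 to 12.1 CPM there and to 0.111 to 2.22 CPM in the other 8, and their part in the SP600125 results was not tested. The 3 immune markers summed in A549 to 47.1 to 52.3 CPM with SR11302 and 3.93 to 4.02 CPM with SP600125. In untreated A549 cells they summed to 46.1 to 50.3 CPM. Most of this was CD68, at 3.35 and 3.52 CPM with SP600125, against 47.9 and 43.8 CPM in untreated A549 cells. PTPRC was near 0 and CD14 at most 2.45 CPM in A549. The part of the immune markers was not tested either.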

How the data were processed

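Messenger RNA was sequenced from 12 libraries, 2 in each of 6 groups (A549 and B2B, each with SR11302, with SP600125 or untreated). The authors extracted RNA with TRIzol, treated it with DNase I, selected polyadenylated RNA, aligned reads to hg38 with STAR (version 2.7.10a) and then ran HTSeq (version 1.99.2) to count them by gene. Raw counts were deposited by the authors, with no normalization. HTSeq drops reads that align to several places or to overlapping genes, which lowers counts of genes with near copies. The annotation version, strand setting and read length were each not given in the sources used here. Tallies of reads in no gene (14.6 to 25.9% of a library) stayed out of library sizes and tests. Counting intervals pool the reads of the 2 libraries of a group, so they cover counting error only and leave out the spread between libraries. No molecular identifiers are stated, so duplicate reads cannot be set apart.

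All libraries were fitted in 1 model with 6 groups in edgeR (version 4.0.16, R version 4.3.3), with TMM factors, filterByExpr (16373 genes kept) and the quasi-likelihood F test, with 6 residual degrees of freedom. Standard errors were the absolute log2 fold change over the square root of F. Genes were called at an adjusted p under 0.05 (Benjamini-Hochberg over all genes tested) and a log2 fold change of 0.5 or more in size. CPM are counts scaled to the TMM library size, divided by the length of the canonical transcript where genes were set against each other. The sources do not say whether the libraries of a group came from separate cultures, so p-values measure the spread between these libraries. Members, gene lists and tests were chosen with earlier results of these data known. The genes named were, per comparison, up to 6 called members per direction with the largest change and 1 CPM or more in the mean of the higher group, the drug, sterol, peroxisomal and mitochondrial transporters, ABCE1 and the ABCF genes, and up to 3 called genes per list and treatment comparison. CFTR was in the rule but did not pass the filter on low counts. A few genes of the rule, 2 members among them, are in the counts and fits but are not reported here.

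Alternatives were DESeq2 (version 1.42.0), library size alone, other filters, no fold minimum, a replicate block and each library left out. A GC offset per library, the loss of both second untreated libraries and a limit to members with at least 95% unique windows were added after seeing the data. Fits were tested on simulated data. Promoters came from RefSeq (GRCh38.p14) and positions of genes from GENCODE v44. The lists of xenobiotic receptors and of potassium channel partners were counted and are given in the closing section.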

Additional observations from a re-analysis of the deposited data

Results flagged for a closer look

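The effect of an inhibitor differed between the lines, by the interaction test in edgeR, for the members below (log2 difference, effect in A549 minus that in B2B, with its adjusted p). Under SR11302 it was positive for ABCA1 (3.78, 2.83e-06), ABCA8 (3.63, 0.0085) and ABCA12 (1.41, 0.0442). Under SR11302 it was negative for ABCA2 (-0.68, 0.0159), ABCA3 (-1.54, 2.27e-05), ABCA7 (-0.76, 0.0364), ABCC3 (-1.22, 0.000308) and ABCC6 (-1.36, 0.025). Under SP600125 it was positive for ABCC2 (3.4, 0.00368), ABCA1 (2.14, 5.61e-05), ABCA10 (2.11, 0.0331), ABCG2 (2.01, 0.000355), ABCC4 (1.65, 0.000104), ABCA12 (1.53, 0.0243), ABCA5 (1.06, 0.0169), ABCE1 (0.78, 0.00743), ABCC5 (0.72, 0.00484) and ABCB6 (0.63, 0.0236). Under SP600125 it was negative for ABCB1 (-2.95, 0.0313), ABCG1 (-2.5, 0.0166), ABCC3 (-1.68, 1.63e-05), ABCA7 (-1.12, 0.00317), ABCA2 (-0.86, 0.00284) and ABCA3 (-0.8, 0.00247).

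Several of these rested on single libraries or on few reads. The calls of ABCA7 and ABCA12 under SR11302 were lost in 12 and 11 alternatives, and those of ABCA10, ABCB1 and ABCB6 under SP600125 in 10, 7 and 6. ABCB1 had 5 reads in B2B with SP600125 and 2 reads in untreated B2B cells. With a GC offset per library, ABCE1 under SP600125 stood at 0.20 and ABCA2 at -0.42, and neither was called. Groups of 2 libraries are too small for a search for single outlying samples.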

How the results depend on the processing

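Without scaling factors SR11302 called 5 members in A549, and without the fold minimum it called 13, in place of 8. Leaving out 1 library gave 5 to 11 members called with SR11302 in A549, 13 to 18 with SP600125 in A549, 7 to 10 with SR11302 in B2B, 11 to 16 with SP600125 in B2B and 22 to 25 between the lines. The interaction gave 3 to 11 for SR11302 and 11 to 16 for SP600125, and SP600125 against SR11302 gave 12 to 14 in A549 and 11 to 15 in B2B. The counts over all genes ranged in the same fits from 3142 to 5609 with SR11302 in A549, 7053 to 8250 with SP600125 in A549, 2406 to 4086 with SR11302 in B2B, 6133 to 7482 with SP600125 in B2B, 8705 to 9596 between the lines, and 1375 to 4768 and 2741 to 4972 in the interactions. The lowest counts of SR11302 in A549 (5) and of its interaction (3) came without replicate 1 of A549_NT, and the interaction fell to 5 without replicate 1 of B2B_NT or replicate 2 of B2B_SR11302. Without the second untreated library of each line the SR11302 interaction called 4 members in place of 8. With a GC offset per library ABCA7 turned to 0.18 with SP600125 in A549. Over all alternatives and comparisons, 5678 values of the members reported stayed called or stayed not called, 156 lost a call and 87 gained one. For 1 value that was called the sign changed. Signs of values called in neither fit were not compared, and some of these changed. The TMM factors moved the median of all genes by 0.12 on the log2 scale between the lines, by -0.12 with SR11302 in A549 and by -0.14 with SP600125 in B2B, relative to library size alone.

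Whether equal replicate numbers pair the libraries was not settled. The correlation of same-numbered deviations ran from -0.617 to 0.532 over 15 pairs of groups and passed 0.1 in 3. The value of 0.532 was between A549_SR11302 and A549_NT, so the range cannot exclude pairing in that comparison. With the replicate number as a block, 23 members were called between the lines, 8 and 18 in A549 and 7 and 16 in B2B with SR11302 and SP600125, 7 and 16 in the interactions and 12 in each line for SP600125 against SR11302. Depth limits ABCB1, ABCG1 and ABCC8 in B2B and ABCA8 in A549, which had 0 to 6 reads in the untreated pair of that line.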

Other observations

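The other lists were counted in the same fit. Of 16 tested xenobiotic receptors and CYP enzymes, 8 were higher and 6 lower in untreated A549 cells than in untreated B2B cells. With SP600125 4 rose and 1 fell in A549, and 3 rose and 6 fell in B2B. CYP1B1, a target of the aryl hydrocarbon receptor, rose with SP600125 in A549 (1.10 ± 0.11, adjusted p = 3.43e-06) and fell in B2B (-2.12 ± 0.12, adjusted p = 1.98e-08). PPARA, a receptor for fatty acids, rose with SP600125 in A549 (1.06 ± 0.17, adjusted p = 0.000119) and in B2B (1.85 ± 0.16, adjusted p = 8.04e-07). With SR11302 2 rose and 1 fell in A549, and 3 rose and 3 fell in B2B. Both potassium channel subunits that pair with ABCC8 and ABCC9, KCNJ8 and KCNJ11, were higher in untreated A549 cells. Of these 2, 1 rose with SR11302 in A549 and 2 in B2B, while with SP600125 1 fell in A549 and 1 rose in B2B.

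Among peroxisomal genes, SLC27A2, a very long chain fatty acid ligase, rose with SP600125 in B2B (3.74 ± 0.21, adjusted p = 1.98e-08), and CAT, the catalase gene, rose in A549 (1.17 ± 0.10, adjusted p = 9.12e-07). With SR11302 3 peroxisomal genes rose and 1 fell in A549, and 3 rose in B2B. Between the untreated lines, 6 of 18 peroxisomal genes were higher and 5 lower in A549, 10 of 22 mitochondrial iron-sulphur and haem genes were higher and 2 lower, 6 of 14 efflux genes were higher and 5 lower, and 3 of 6 surfactant genes were higher and 2 lower. Among 13 peptide loading genes, 5 rose and 1 fell with SR11302 in A549, 3 rose and 1 fell with SR11302 in B2B, and 4 rose and 1 fell with SP600125 in B2B.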
